A study of Mus musculus with 12 samples.

Results

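A set of 8 genes that let a macrophage recognise and bind dying cells was described in brain perivascular macrophages of aged and young adult mice. They are the TAM receptors Mertk, Axl and Tyro3, the bridging ligands Gas6 and Pros1, the phosphatidylserine receptor Timd4, its relative Havcr2 and the endocytic receptor Lrp1. They were chosen by name, and all 8 of 8 were found among the 17358 genes of the deposited table. The 12 RNA sequencing libraries came from C57BL mice, 5 from aged animals (18 months) and 7 from young adults (3 months), with no other treatment or genotype given. The libraries are described as biological replicates; the isolation of the cells, the number of cells or animals in a library and the sex of the mice are not stated, and the protocol speaks of lysis for single cells.

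Efferocytosis is the uptake of dying cells by phagocytes. A dying cell exposes the lipid phosphatidylserine on its surface; Gas6 and protein S, the product of Pros1, attach to this lipid and bridge it to the TAM receptor tyrosine kinases, whereas Timd4 binds the lipid directly. Mertk is the TAM receptor best known for steady clearance by resident macrophages, and Axl is known for its induction in inflamed tissue. Macrophages along brain vessels and microglia are both known to express Mertk, Axl and their ligands, and long-lived resident macrophages at tissue borders are known for Timd4.

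The 4 promoters shown here belong to the pair of TAM receptors that were well expressed and to the pair of TIM genes. The TIM genes lie 329531 bases apart on chromosome 11 and differed in how evenly the libraries expressed them. RefSeq promoter windows of GRCm38.p6 (250 bases before to 50 after an annotated start) were found for all 8 genes. Capitals mark matches, on either strand, to the motifs named below. For Axl, Tyro3 and Timd4 the start used lies inside the gene span given below, not at its end. Most of the Axl window and all of the Tyro3 window lie within those spans. The windows are chr2:128698665-128698964 on the plus strand for Mertk, chr7:25788684-25788983 on the minus strand for Axl, chr11:46810549-46810848 on the plus strand for Timd4 and chr11:46454681-46454980 on the plus strand for Havcr2.
Mertk: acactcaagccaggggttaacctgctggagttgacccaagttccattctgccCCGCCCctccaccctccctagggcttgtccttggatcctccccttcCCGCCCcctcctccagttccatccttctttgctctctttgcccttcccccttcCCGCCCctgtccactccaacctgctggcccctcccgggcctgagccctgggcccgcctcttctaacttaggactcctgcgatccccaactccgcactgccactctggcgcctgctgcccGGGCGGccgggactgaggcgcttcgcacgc
Axl: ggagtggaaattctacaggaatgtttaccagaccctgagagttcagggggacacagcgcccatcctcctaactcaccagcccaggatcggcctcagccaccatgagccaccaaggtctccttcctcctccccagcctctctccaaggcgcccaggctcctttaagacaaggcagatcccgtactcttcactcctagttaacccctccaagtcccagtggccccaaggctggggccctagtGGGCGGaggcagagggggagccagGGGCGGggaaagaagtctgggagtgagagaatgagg
Timd4: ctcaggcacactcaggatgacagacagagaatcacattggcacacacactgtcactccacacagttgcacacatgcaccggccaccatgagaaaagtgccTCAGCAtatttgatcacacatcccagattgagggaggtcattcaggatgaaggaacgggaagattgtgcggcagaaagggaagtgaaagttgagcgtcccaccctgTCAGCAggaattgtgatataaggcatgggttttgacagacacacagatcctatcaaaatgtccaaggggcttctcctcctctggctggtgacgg
Havcr2: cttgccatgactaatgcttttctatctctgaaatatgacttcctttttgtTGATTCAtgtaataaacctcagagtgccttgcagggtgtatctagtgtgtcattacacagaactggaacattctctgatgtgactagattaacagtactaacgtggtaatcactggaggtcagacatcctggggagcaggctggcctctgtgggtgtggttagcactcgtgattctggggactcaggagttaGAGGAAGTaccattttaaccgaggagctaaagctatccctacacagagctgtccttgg

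The motifs were picked after the sequences had been read, so their counts are descriptions. The GC box (GGGCGG) occurred 4 times in the Mertk window and 2 times in the Axl window. It was found in 6 of the 8 windows, all but those of Timd4 and Havcr2, and in 35.7% of the 32851 promoters of the same length. The Havcr2 window held a PU.1 type ETS motif (GAGGAAGT, in 3.2% of all promoters) and an AP-1 motif (TGANTCA, in 7.81%), and neither was found in the other 7 windows. The Timd4 window held a short MAF motif (TGCTGA, in 19.5% of promoters) at 2 places. The TATA box (TATAAA), the NF-kB motif and the interferon-stimulated element core matched none of the 8 windows, while 13.6%, 1.47% and 3.44% of all promoters held them. GC made up 45.3% of the Havcr2 window and 50.7% of the Timd4 window, against 58.3% to 73.3% in the other 6 and a median of 52.7% over all promoters.

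The libraries held between 23214816 and 30628789 estimated counts, and 3 counts corresponded to 0.0979 to 0.129 CPM. Of the 12 listed markers of perivascular macrophages, 11 were above 0 in every library and Siglec1 was at 0 in 1 young library, with 12 of 12 at a mean of at least 1 normalised CPM (counts scaled to the library total with TMM factors) and a summed level of 10900 to 17400 in aged and 11500 to 21300 in young libraries. The 10 microglia markers also summed to 3830 to 5700 normalised CPM in aged and 3620 to 7010 in young libraries, with P2ry12 above 0 in every library and Tmem119 and Sall1 at 0 in some. Markers of endothelium summed to at most 17.4 and 27.8, of neurons to at most 96.0 and 69.3, and of astrocytes to at most 137 and 83.5 normalised CPM in aged and young libraries. The same maxima were 171 and 102 for mural cells and fibroblasts, 107 and 116 for monocytes and neutrophils, and 84.3 and 85.0 for oligodendrocytes. Choroid plexus and ependyma markers, led by Ttr, summed to 178 to 1090 in aged and 59.4 to 152 in young libraries. Kcnj13 averaged 40.8 normalised CPM in aged libraries, all above 0, and 0.375 in young ones, of which 6 were at 0. Foxj1 was at 0 in all aged and 6 young libraries, and Folr1 in all young and 4 aged ones. Aged libraries 1, 3 and 4 stood apart on the first principal component (scores of -163.8 to -135.1, the others from -34.0 to 104). In these libraries, whose cell number is not stated, fewer cells of a type and less RNA per cell cannot be told apart. The part of the microglia and choroid markers in the values below was not tested.

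Per transcript length, the ligand Gas6 and the lipid receptor Timd4 were the most abundant of the 8 mRNAs, and Lrp1 and Tyro3 the least. Over the 12 libraries Gas6 averaged 70.3 ± 26.0 FPKM (fragments scaled to transcript length and library total, SD, n = 12) and Timd4 59.5 ± 22.8. Pros1 followed at 36.9 ± 12.4, Axl at 32.3 ± 17.7 and Mertk at 30.9 ± 12.4 FPKM. Havcr2 averaged 11.2 ± 11.5, Lrp1 1.81 ± 1.35 and Tyro3 0.131 ± 0.330 FPKM. In that order only Lrp1 and Tyro3 were neighbours whose means ± SD did not overlap, and Lrp1 was above Tyro3 in 12 of 12 libraries. Gas6 exceeded Timd4 in 8 of 12 libraries (3 of 5 aged and 5 of 7 young), and Axl exceeded Mertk in 7 of 12 (4 of 5 aged and 3 of 7 young). Gas6 was the highest of the 8 in 3 of 5 aged and 5 of 7 young libraries; Timd4 led in 1 aged and 2 young ones, and Axl in aged library 1. The median over the 9550 tested genes was 7.57 FPKM, and 86.9% of them lay below Gas6, 85.4% below Timd4 and 77.5% below Mertk.

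**Figure D1:**
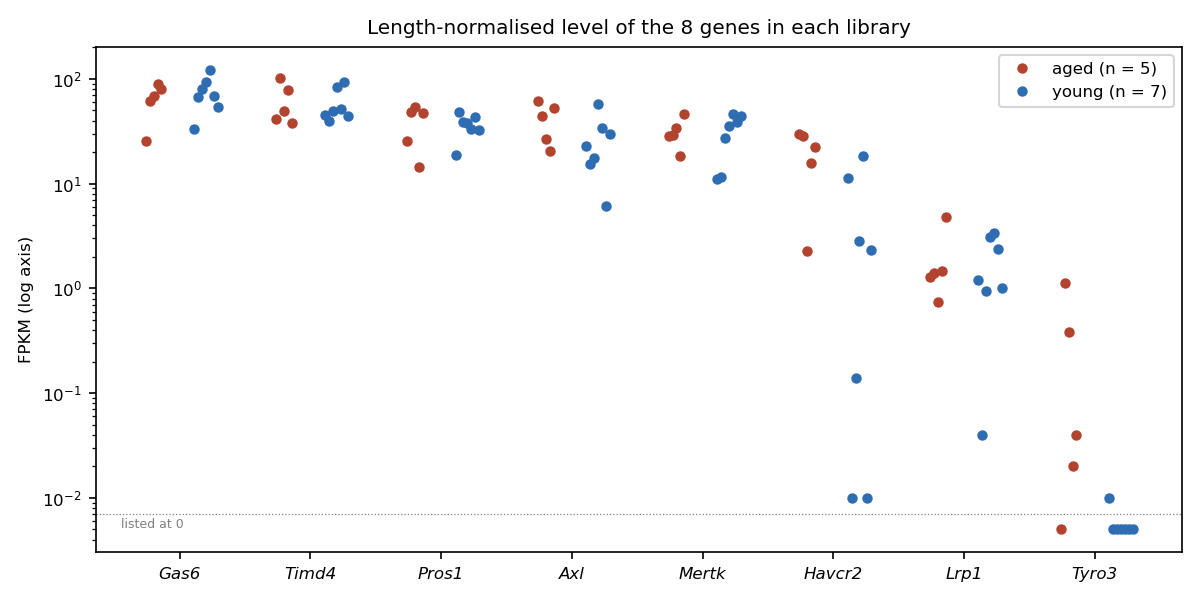
FPKM on a log axis (vertical) of the 8 genes in each of 5 aged and 7 young libraries, 1 point a library, ordered by the mean over 12 libraries; points below the dotted line are listed at 0. Gas6 and Timd4 stay between 25.5 and 121.5 FPKM in all libraries, whereas Havcr2 spans 0.01 to 30.0 FPKM and Tyro3 is at 0 in 6 young libraries and 1 aged library.

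The question of the design is how expression differs between aged and young perivascular macrophages. None of the 7 members that passed the filter on low counts was called by the edgeR quasi-likelihood test (Benjamini-Hochberg adjusted p under 0.05 over 9550 genes), where 0.0105% of all tested genes, the gene Ttr alone, was called. None reached an unadjusted p under 0.05 either, against 5.97% of all genes. None was called by DESeq2 (1.27% of genes called), by edgeR with legacy=FALSE (0.398%) or by limma with voom (1 gene called). Nor was a member called without the low-count filter (0.0753% of genes called), without aged library 2 (0.755%) or aged library 5 (0.0302%), or by limma on log2(FPKM + 1) (0.0314%). The groups overlapped for all 7, and did not overlap for 0.597% of tested genes. The 7 log2 fold changes ran from 0.00 for Gas6 to 2.11 for Havcr2, with a median of 0.29 against -0.01 over all tested genes; 49.5% of all genes had positive values. Without aged libraries 1, 3 and 4, which stood apart, no gene was called, and the log2 fold changes were 0.30 for Mertk, 0.91 for Axl, -0.05 for Gas6, 0.42 for Pros1, 0.31 for Timd4, 2.38 for Havcr2 and 0.84 for Lrp1.

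**Figure D2:**
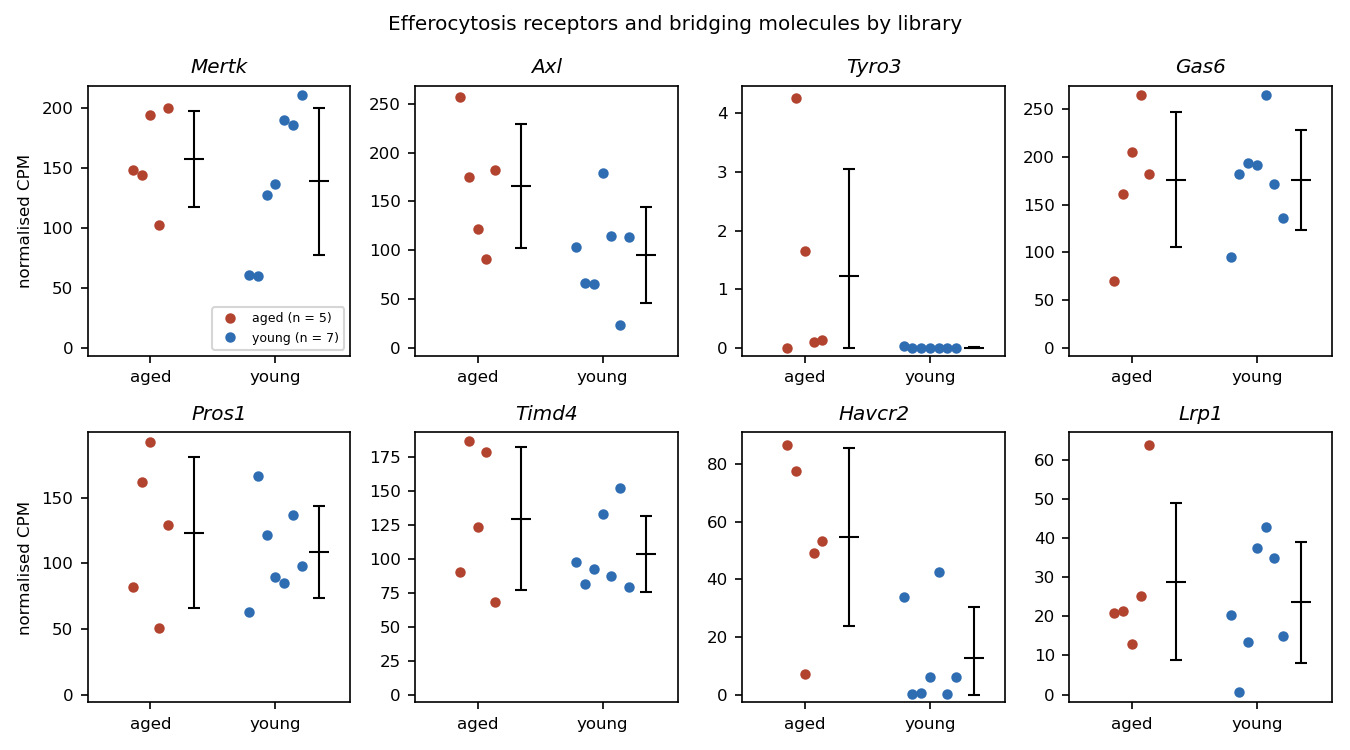
Normalised CPM (vertical, from 0) of each member in 5 aged and 7 young libraries, 1 point a library; the black bar is the mean ± SD, drawn no lower than 0. Aged and young points overlap in all 8 panels, with Axl (166 against 95.4) and Havcr2 (54.7 against 12.7) showing the widest gaps between the group means among the 7 tested genes.

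Among the TAM receptors, Mertk (Entrez 17289, chromosome 2 from 128698915 to 128803162 of GRCm38) had group means that differed by less than the spread between libraries. It stood at 148, 144, 194, 102 and 200.0 normalised CPM in aged libraries 1 to 5, and between 60.2 and 211 with a median of 137 in young libraries. Young libraries 1 and 2 were the lowest of all 12, and the young range enclosed the whole aged range. The means were 158 ± 40.2 in aged (SD, n = 5) and 139 ± 61.3 in young libraries (SD, n = 7), with a log2 fold change of 0.18 ± 0.35 (SE, edgeR quasi-likelihood adjusted p = 0.999). It ran from 0.0183 without young library 1 to 0.31 without young library 7.

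Axl (Entrez 26362, chromosome 7 from 25756500 to 25788924), the TAM receptor whose ligand is Gas6 and not protein S, was at 256.5, 175.5, 122, 91.5 and 183 normalised CPM in aged libraries 1 to 5. Young libraries ranged from 23.4 to 179 with a median of 104. In all, 4 aged libraries lay above that median and aged library 4 below it, while young library 4 was above 3 of the aged libraries. The means were 166 ± 63.3 in aged and 95.4 ± 49.4 normalised CPM in young libraries (SD, n = 5 and n = 7). The log2 fold change of 0.80 ± 0.40 (SE) did not pass the test (edgeR quasi-likelihood, unadjusted p = 0.0657 and adjusted p = 0.908). It stayed between 0.57 and 1.02 on leaving out any single library.

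Tyro3 (Entrez 22174, chromosome 2 from 119797740 to 119818104), the TAM receptor best known from neurons, was close to absent and was not tested because it failed the filter. Aged libraries 1 to 5 held 0, 126, 33, 2 and 4 counts, and young library 1 held 1 count, the other 6 young libraries none. For these, a count of 0 allows up to 3 counts. Scaled to library totals, the 165 aged counts against 1 young count gave a ratio of 253 (95% exact interval 44.9 to 10100, counting error only). Without aged library 2 it was 78.1 (13.2 to 3160), with 33 of the 39 aged counts then left in aged library 3. Both intervals pool counts and do not cover the spread between libraries. In a fit with no filter edgeR's quasi-likelihood test gave Tyro3 an unadjusted p of 0.00718 and an adjusted p of 0.212. Most of the difference lay in aged libraries 2 and 3. Astrocyte markers had their highest sums in these libraries (86.5 and 137 normalised CPM). Neuron markers summed to 22.2 and 96.0 in aged libraries 2 and 3, and to 58.1 in aged library 1, which had no Tyro3 count; the part of such cells in the Tyro3 counts was not tested.

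For the ligands no difference between the ages was detected. Gas6 (Entrez 14456, chromosome 8 from 13465374 to 13494535), the ligand of all 3 TAM receptors, was at 69.9, 161, 205, 264 and 182 normalised CPM in aged libraries 1 to 5. In young libraries it ranged from 95.5 to 264.5 with a median of 182. Library 1 was the lowest of its group in each age, and the medians of the groups were both 182. The means were 176 ± 71.0 in aged and 176 ± 52.4 in young libraries (SD, n = 5 and n = 7; log2 fold change 0.00 ± 0.32, SE, edgeR quasi-likelihood adjusted p of 1.0). Pros1 (Entrez 19128, chromosome 16 from 62854307 to 62929346) encodes protein S, which is also an anticoagulant of plasma. It was at 82.0, 162, 193, 51.1 and 129 normalised CPM in aged libraries 1 to 5, and from 63.0 to 167 with a median of 98.3 in young ones. Aged library 4 was the lowest of all 12 and aged library 3 the highest, so the young range lay inside the aged range. The means were 123 ± 57.6 in aged and 109 ± 35.3 in young libraries (log2 value 0.18 ± 0.35, SE, n = 5 and n = 7, edgeR quasi-likelihood adjusted p = 0.999).

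Ratios within a library do not depend on how libraries are scaled, and 2 were tested. The log2 ratio of Mertk to Axl FPKM, with 0.1 added to each, was -1.11, -0.58, 0.35, -0.15 and -0.18 in aged libraries 1 to 5, and between -1.05 and 2.65 in young libraries. Axl was the more abundant in 4 of 5 aged and 3 of 7 young libraries. The means were -0.33 ± 0.54 in aged and 0.31 ± 1.23 in young libraries, a difference of -0.64 (SD, n = 5 and n = 7, exact two-sided permutation p = 0.332, where 0.00126 is the smallest p this design allows). Young library 6, with Mertk at 6.37 times Axl, was the widest from balance, and without it the difference was -0.25 (exact permutation p = 0.532).

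Gas6 mRNA exceeded Pros1 mRNA per length in 4 of 5 aged libraries, with the ratio at 1.0 in aged library 1, and in all 7 young ones. The log2 ratio of Pros1 to Gas6 was 0.01, -0.35, -0.36, -2.62 and -0.77 in aged libraries 1 to 5 and between -1.87 and -0.47 in young libraries. The means were -0.82 ± 1.04 in aged and -0.98 ± 0.48 in young libraries, a difference of 0.17 (exact two-sided permutation p = 0.726, SD, n = 5 and n = 7). Aged library 4 was far below the rest, and without it the difference was 0.62 (exact permutation p = 0.0455); without aged library 1 it was -0.04 (exact permutation p = 0.933).

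**Figure D3:**
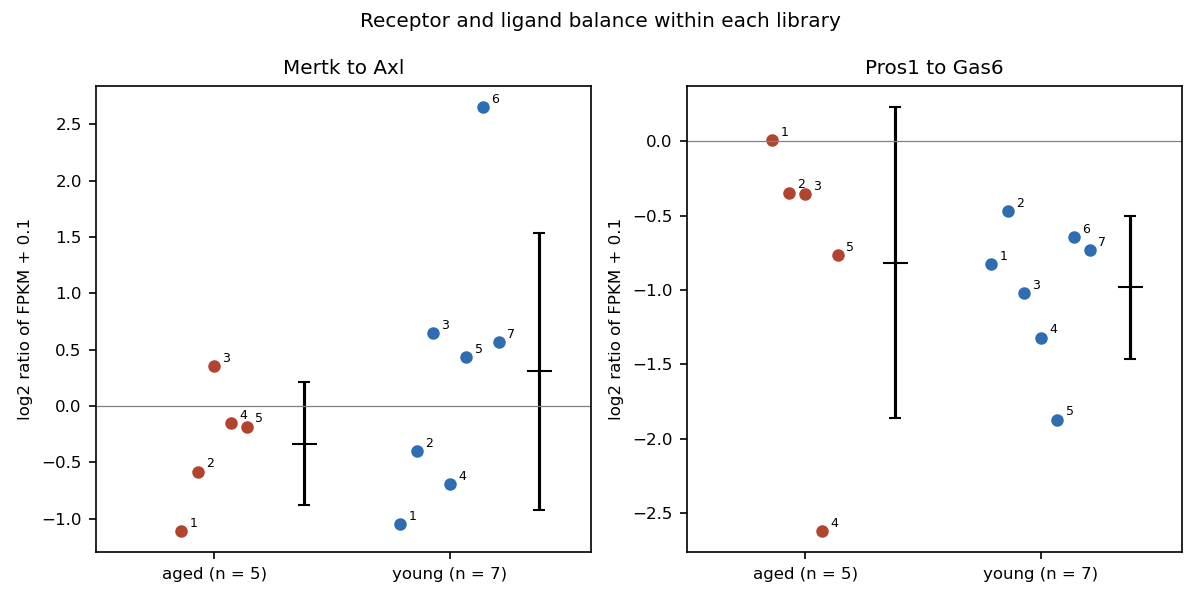
Log2 ratio of FPKM + 0.1 (vertical) of Mertk to Axl and of Pros1 to Gas6 in 5 aged and 7 young libraries; numbers beside points are library numbers, black bars mean ± SD, and the grey line marks equal levels. Young library 6 (2.65) is the highest Mertk to Axl ratio and aged library 4 (-2.62) the lowest Pros1 to Gas6 ratio.

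The TIM genes differed in evenness. Timd4 (Entrez 276891, chromosome 11 from 46810786 to 46844333) was detected with at least 2035 counts in every library. It was at 90.6, 187, 123, 179 and 68.1 normalised CPM in aged libraries 1 to 5, and ranged from 79.5 to 152 with a median of 92.6 in young libraries. Aged libraries held both the 2 highest and the lowest value of all 12. The means were 129.5 ± 52.6 in aged and 103 ± 28.0 in young libraries (SD, n = 5 and n = 7; log2 fold change 0.33 ± 0.32, SE, edgeR quasi-likelihood adjusted p = 0.999). Its log2 fold change was 0.06 by limma on log2(FPKM + 1), and the transcript length implied by its counts and FPKM varied between libraries from 1650 to 2154 bases.

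Havcr2 (Entrez 171285, chromosome 11 from 46454931 to 46481255, 329531 bases from Timd4) encodes TIM-3, an inhibitory receptor of T cells that myeloid cells carry too. It had the largest log2 fold change among the 7 tested members, and also the widest spread. Aged libraries 1 to 5 were at 86.6, 77.5, 7.21, 49.1 and 53.3 normalised CPM. Young libraries ranged from 0.0342 to 42.4 with a median of 6.03. Young libraries 2 and 6 held 1 count each and young library 3 held 11, whereas young library 5 held 1335. All 5 aged libraries lay above the young median, but aged library 3 lay below young libraries 1 and 5. The means were 54.7 ± 30.9 in aged and 12.7 ± 17.8 in young libraries (SD, n = 5 and n = 7), a fold of 4.31 (log2 2.11 ± 1.27, SE, unadjusted p = 0.114, edgeR quasi-likelihood adjusted p = 0.999). The log2 fold change was 4.69 with voom weights (adjusted p = 0.366) and 2.35 by limma on log2(FPKM + 1), and ran from 1.88 to 2.85 on leaving out single libraries. Its coefficient of variation over the 12 libraries was 104%, against a median of 83.1% over tested genes and 32.7% to 51.4% for Mertk, Axl, Gas6, Pros1 and Timd4. Lymphocyte markers summed to 9.86 to 60.4 normalised CPM in aged and 8.42 to 90.4 in young libraries, and their part in the Havcr2 values was not tested.

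Lrp1 (Entrez 16971, chromosome 10 from 127538157 to 127621148), a large endocytic receptor that takes up many ligands and pairs with calreticulin in the uptake of dying cells, was at 20.8, 21.4, 12.9, 25.3 and 63.7 normalised CPM in aged libraries 1 to 5. It ranged from 0.607 to 42.9 with a median of 20.3 in young libraries. Aged library 5 was the highest of all 12 and young library 2, with 17 counts, the lowest. The means were 28.8 ± 20.0 in aged and 23.5 ± 15.3 in young libraries (SD, n = 5 and n = 7; log2 fold change 0.29 ± 0.84, SE, edgeR quasi-likelihood adjusted p = 0.999). With aged library 5 left out, the log2 value was -0.25. Its counts and FPKM implied a transcript of about 14910 bases.

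Of the 21 pairs among the 7 tested members, Axl and Havcr2 had the closest profiles over the 12 libraries. On log2(normalised CPM + 1) their Pearson r was 0.751 (permutation p = 0.00243, 0.051 after Benjamini-Hochberg adjustment over 21 pairs) and Spearman's rho 0.727 (permutation p = 0.010, adjusted 0.21). The relation did not pass the adjustment. Pearson's r was 0.636 without the 2 libraries farthest from the median of Axl, and 0.666 within the 7 young libraries; the 5 aged libraries are too few for a value of their own. The next closest pair, Mertk and Lrp1, had r = 0.591 (permutation p = 0.0507, adjusted 0.503) and rho = 0.315 (permutation p = 0.32, adjusted 0.84). Its r was 0.163 without the 2 farthest libraries and 0.636 within the 7 young ones. Pros1 and Havcr2 had r = -0.451 over the 12 libraries (permutation p = 0.14, adjusted 0.735). Within the 7 young libraries their r was -0.915, the largest in size of the 21 pairs there, and it was not tested. Havcr2 held only 1, 11 and 1 counts in young libraries 2, 3 and 6. Mertk and Axl had r = 0.143 (permutation p = 0.655, adjusted 0.86; rho = 0.406, permutation p = 0.195, adjusted 0.828), and Gas6 and Pros1 r = 0.149 (permutation p = 0.646, adjusted 0.86; rho = 0.049, permutation p = 0.887, adjusted 0.955). Without the 2 farthest libraries r was -0.05 for Mertk and Axl and -0.52 for Gas6 and Pros1.

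**Figure D4:**
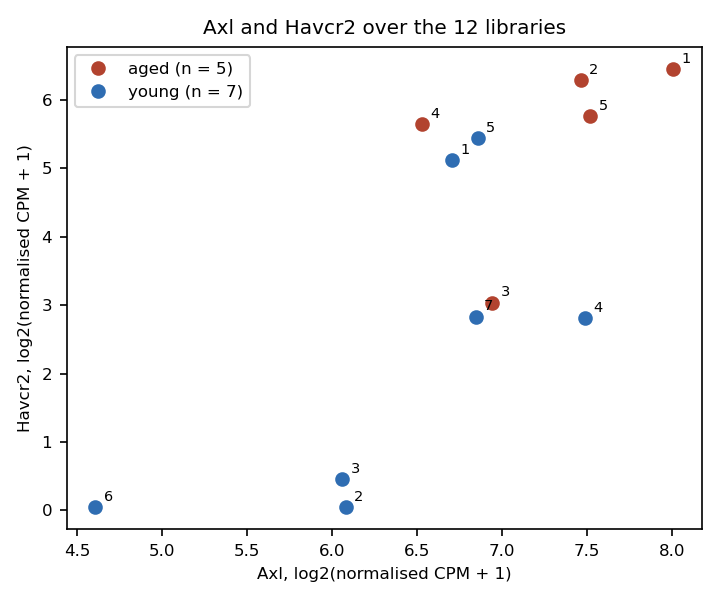
Havcr2 (vertical) against Axl (horizontal), both as log2(normalised CPM + 1), in 5 aged and 7 young libraries; numbers are library numbers. Young libraries 2, 3 and 6, which hold 1, 11 and 1 Havcr2 counts, have the lowest Axl values, between 23.4 and 66.7 normalised CPM.

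Genes most like each member over the 12 libraries were picked from all tested genes by Pearson r on the same scale, as a description of libraries that share depth and preparation. For Mertk these were Slc35f6 (r = 0.939), Zfp944 (0.920) and Zfp410 (0.918), and for Axl they were Tnfsf13 (0.911), Ncor1 (0.875) and Zfp846 (0.863). Gas6 was closest to Phkb (0.945), Aebp2 (0.932) and Zmpste24 (0.889), and Pros1 to Phf6 (0.905) and Chd7 (0.836). Timd4 was closest to Etv5 (0.870), Gstt1 (0.864) and Med17 (0.850), Havcr2 to Secisbp2 (0.941), Ppm1a (0.881) and Ebag9 (0.820), and Lrp1 to Wasl (0.911), Mctp1 (0.903) and Gpsm3 (0.902). No member of the 8 was among them.

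Around these receptors, 9 lists of other efferocytosis genes held 92 tested genes. None was called by edgeR and 1 (Mon1a) by DESeq2, which called 1.27% of all tested genes. None was called by edgeR with legacy=FALSE (0.398% of all tested genes called) or by limma with voom (1 gene called). At an unadjusted p under 0.05 there were 3 higher and 8 lower genes in aged libraries. These were 3.26% and 8.7% of the 92, against 3.85% and 2.12% of all tested genes. The lists were chosen with earlier results of these data known, so these shares are descriptions only. The 8 lower genes included Mon1a and Ppard, which passed the low-count filter only through the young group. The median log2 fold change of the 92 was -0.15.

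Of 6 other tested phosphatidylserine and lipid receptors, 5 had negative log2 fold changes (median -0.44). Cd36, a fatty acid receptor that also binds dying cells, averaged 449 ± 110 normalised CPM in aged libraries and 733 ± 201 in young ones (log2 -0.71, edgeR quasi-likelihood adjusted p = 0.421), and the scavenger receptor Msr1 at 448 ± 139 against 406 ± 143. Of 11 other bridging molecules and integrins, 5 were positive and 6 negative (median -0.23). C1qa, a chain of the opsonin C1q, was at 1730 ± 853 against 2890 ± 609 (log2 fold change -0.74, adjusted p = 0.567), and Itgav, the integrin chain that receives Mfge8, at 73.6 ± 36.9 against 42.0 ± 15.6 (0.81). Of 9 genes of receptor shedding, the don't-eat-me signal and Lrp1 handling, 5 were positive (median 0.04). The membrane protease Adam10 was at 641 ± 285 against 364 ± 130 (log2 fold change 0.82, adjusted p = 0.593, and -0.02 without aged libraries 1, 3 and 4). Sirpa, which receives the don't-eat-me signal of Cd47, averaged 91.8 ± 32.2 in aged libraries against 182 ± 48.5 in young ones (-0.99, adjusted p = 0.36).

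Of 5 find-me receptors 4 were negative (median -0.41), with the nucleotide receptor P2ry6 at 161 ± 70.5 normalised CPM in aged libraries against 284 ± 109 in young ones, and the lipid receptor S1pr1 at 86.1 ± 53.5 against 81.4 ± 57.1. Of 17 genes of the engulfment machinery 10 were negative (median -0.20); the small GTPase Rac2 was at 38.6 ± 29.0 against 106 ± 25.8 (log2 -1.46, edgeR quasi-likelihood adjusted p = 0.399) and Rhoa at 405 ± 114 against 303 ± 60.1. Of 19 genes of phagosome maturation 14 were negative (median -0.16). Rab5a, a GTPase of early endosomes, was at 94.8 ± 40.7 against 52.8 ± 35.3. Mon1a, part of the exchange factor that loads Rab7, summed to 3 counts in the 5 aged libraries and to 1306 in the young ones, where 6 of 7 libraries were above 0 and 1 library held 687. Scaled to library totals, the young to aged ratio was 283 (95% exact interval 96.8 to 1380, counting error only). Without aged library 2, which held 2 of the 3 aged counts, it was 653 (117 to 25800). Neither interval covers the spread between libraries. The edgeR adjusted p was 0.352 and that of DESeq2 0.00489, for a gene that passed the low-count filter only through the young group and no longer passed it on leaving out young library 1, 4, 5, 6 or 7.

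Of 11 genes that handle the lipid load after uptake 7 were negative (median -0.14). The cholesterol exporter Abca1 averaged 551 ± 212 normalised CPM in aged libraries against 361 ± 105 in young ones (log2 0.61, edgeR quasi-likelihood adjusted p = 0.785). The nuclear receptor Ppard summed to 9 counts in aged and 1272 in young libraries, 6 of 7 of which were above 0; it too passed the filter only through the young group, and not without young library 2, 4, 5, 6 or 7. Of 9 genes that TAM signalling is known to act through or on, 4 were positive (median -0.08), with the interferon receptor chain Ifnar1 at 131 ± 39.3 against 85.4 ± 40.1. All 5 genes of phosphatidylserine exposure had positive log2 fold changes (median 0.41), and the lipid flippase Atp8a1 was at 145 ± 40.6 against 85.1 ± 25.7 (0.77, adjusted p = 0.631 by edgeR). None of these differences passed the edgeR test, and the groups overlapped for each of the 92 tested genes, against 0.597% of all tested genes that did not overlap. Without aged libraries 1, 3 and 4 the log2 fold changes were 0.0805 for Abca1, -0.23 for C1qa, -0.75 for Rac2, 0.50 for Atp8a1, 0.0193 for Msr1 and 0.59 for S1pr1.

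**Figure D5:**
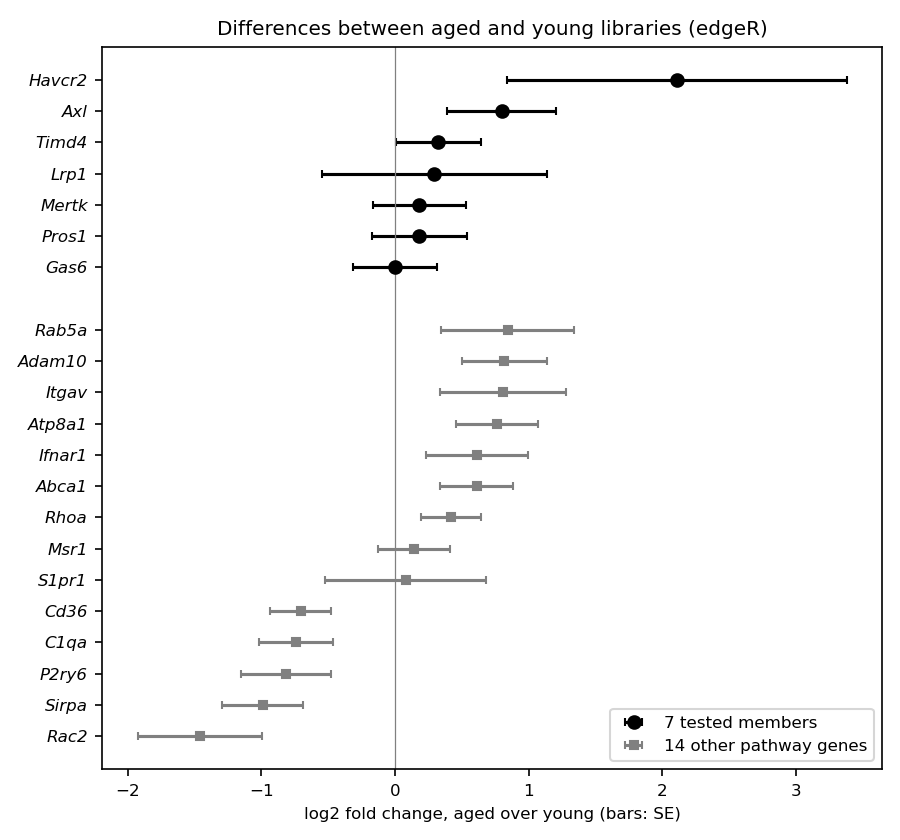
Log2 fold change (horizontal, aged over young) with its SE for the 7 tested members (circles) and 14 named genes of the surrounding lists (squares), from edgeR; Mon1a and Ppard, with 3 and 9 counts in aged libraries, are left out. Havcr2 has the largest value (2.11) and the widest SE (1.27), and none of the 21 differences passed the adjusted threshold.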

How the data were processed

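Perivascular macrophage RNA was profiled in 5 aged and 7 young libraries with SMART-seq2, an oligo-dT primed full-length method, and Nextera XT libraries, per the labels' protocols. The chemistry marks no strand and carries no molecular identifiers. The submitters' processing notes name RSEM 1.2.12, HISAT2 2.0.4, DESeq2 1.4.5 and Bowtie2 2.2.5, without roles, and the build GRCm38; no annotation is named in the sources used here. The authors deposited estimated counts per gene (88.2% to 90.6% whole numbers in a library), which were rounded before testing, and a second set of values with no unit given. These deposited values were taken for FPKM, since their ratio to the counts followed the library total and a length for each gene.

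Groups and library numbers came from the sample titles. The members, gene lists and tests were chosen with earlier results of these data known. Aged and young libraries were compared with edgeR 4.0.16 in R 4.3.3 (quasi-likelihood test, legacy=TRUE, robust, TMM factors, filterByExpr on group), which was tested on simulated data, with Benjamini-Hochberg adjustment over 9550 genes. SE was derived from the F statistic and had a median of 1.12 log2 units over all tested genes. The common biological coefficient of variation of the fit was 1.33. The share of true differences that the test finds is not given here, so a gene not called is not shown to be unchanged. DESeq2 1.42.0 and limma 3.58.1 were alternatives. Ratios were compared by an exact permutation test over the library labels, and correlations by 100000 permutations. From each list the gene with the smallest p in each direction is named; for each member with a mean of at least 10 normalised CPM the 3 genes of highest r are. Of the genes these rules name, 2 are not reported here. Same-numbered libraries of the 2 ages did not deviate together (r from -0.025 to 0.098), so the numbers were not taken as pairs. In GENCODE M21, Gas6 overlaps Tmem255b on the other strand (mean of 0.0294 normalised CPM), and Mertk and Lrp1 each overlap an antisense gene not used here. Intervals and floors cover counting error only.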

Additional observations from a re-analysis of the deposited data

Results flagged for a closer look

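Of 20 sets of values scanned for a library far from the rest of its group (8 genes and 2 ratios in 2 groups), 2 held such a library, and chance gives about 1 in 20. Lrp1 in aged library 5 stood at 63.7 normalised CPM, with the next aged library at 25.3; the gap was 0.756 of the whole range, above the critical value of 0.71. Tyro3 in young library 1 stood at 0.037 normalised CPM, which is 1 count, with the other 6 young libraries at 0. With 6 values at 0 any single count stands apart in this way, so it is not evidence of an unusual library and is not to be set against that chance rate.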

How the results depend on the processing

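No member was called under any of the 22 alternatives. Of 154 refitted log2 fold changes of the 7 tested members, 134 kept their direction and 20 reversed, 16 of them for Gas6. Gas6 was at 0.00 as reported, -0.0506 with DESeq2 size factors or the DESeq2 test, -0.0111 without the filter, -0.0143 with legacy=FALSE, -0.0991 with voom, -0.049 without aged libraries 1, 3 and 4, and -0.20 by limma on log2(FPKM + 1) or + 0.1. Pros1 was at -0.0322 and -0.0367 by these limma fits. On leaving out single libraries Gas6 ran from -0.21 to 0.17, Pros1 from -0.0496 to 0.36 and Lrp1 from -0.25 to 0.50. Among the named list genes Msr1 was at -0.0763 with the length offset and -0.19 and -0.20 by limma on FPKM, and ran from -0.00468 to 0.27 over single libraries left out, S1pr1 from -0.35 to 0.37, and Adam10 was at -0.0246 without aged libraries 1, 3 and 4.

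The number of genes called was 1 as reported, 13 without the filter, 121 by DESeq2, 38 with legacy=FALSE, 3 by limma on log2(FPKM + 1), 0 on log2(FPKM + 0.1) and 0 without aged libraries 1, 3 and 4; over single libraries left out it ran from 0 to 75, the highest without aged library 2. The cause was not tested. With the replicate number as a block it was 0, Gas6 was at -0.13 and Mertk at 0.56, the Mertk to Axl ratio difference at -0.12 and the Pros1 to Gas6 one at 0.28; the block changed no call of a member. The Mertk to Axl difference ran from -0.87 to -0.25 over single libraries left out and the Pros1 to Gas6 difference from -0.0409 to 0.62. For 6 members every library held at least 17 counts, the lowest being Lrp1 in young library 2. Havcr2 had 1 count in 2 young libraries. Whether depth limited any member was not tested.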
